A study of Mus musculus with 24 samples.

Results

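Of the 45713 peaks of trimethylated histone H3 lysine 4 (H3K4me3) listed in the untreated cells, 4357 shared no base with any of the 48385 peaks listed after vitamin C. These untreated-only peaks are 9.53% of the untreated list, and the same rule run from the other side left 6895 vitamin C-only peaks, 14.3% of that list. The 2 H3K4me3 lists chose them, so their number, width and strength describe the selection and carry no test. They are set below beside the 41356 shared peaks of the untreated list and beside the vitamin C-only peaks, which were chosen by the mirror rule.

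H3K4me3 is placed by the SET1 and MLL methyltransferases and removed by KDM5 demethylases, which use 2-oxoglutarate and iron. It is strongest on the nucleosomes just downstream of active and CpG-rich promoters, and weaker, narrower peaks occur at enhancers, where monomethylation (H3K4me1) prevails and acetylation of lysine 27 (H3K27ac) marks activity. PU.1, an ETS factor, and Runx1 bind many promoters and enhancers of blood cells.

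Bone marrow cells of the mouse, made to grow without limit by the homeobox gene HOXA9, were the material, and the peaks and RNA used here came from cells with a vector for IDH1 R132H, a mutant isocitrate dehydrogenase that makes 2-hydroxyglutarate. One methylation region list, named for the mutant, was deposited with an untreated sample whose vector carried wild-type IDH1. One group was untreated. In the other, vitamin C, a cofactor that helps keep the iron of dioxygenases reduced, was brought to 0.345 mM at 0, 24 and 48 h and the cells were harvested at 72 h. The labels give IL-3, IL-6 and SCF in the medium of both groups, give no harvest time for the untreated cells, no strain or age of the mice, and do not say whether the line was 1 clone. Each mark and the RNA had 1 library per condition, so every difference below is between 2 libraries, with no replicate error. The intervals are exact 95% intervals and cover counting error only.

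The promoter stretches shown first are those where an untreated-only peak reached into the 300 bases around an annotated gene start (250 before to 50 after), and where no vitamin C peak did. Zfp951 (a zinc finger gene), Ak1 (adenylate kinase) and Dnmt3a (a DNA methyltransferase) came from the naming rule, and Igf2bp3 (an RNA-binding protein of fetal and leukaemic cells) and Osbpl5 (a lipid transfer protein) were chosen after their values were seen. Each line gives the 250 bases before the start from RefSeq (GRCm38.p6), 5′ to 3′ on the gene's strand, with the bases inside the untreated-only peak in capitals. They lie at chr5:104860028-104860277 (minus strand, Zfp951), chr2:32629250-32629499 (plus, Ak1), chr12:3806730-3806979 (plus, Dnmt3a), chr6:49214955-49215204 (minus, Igf2bp3) and chr7:143740361-143740610 (minus, Osbpl5).
Zfp951: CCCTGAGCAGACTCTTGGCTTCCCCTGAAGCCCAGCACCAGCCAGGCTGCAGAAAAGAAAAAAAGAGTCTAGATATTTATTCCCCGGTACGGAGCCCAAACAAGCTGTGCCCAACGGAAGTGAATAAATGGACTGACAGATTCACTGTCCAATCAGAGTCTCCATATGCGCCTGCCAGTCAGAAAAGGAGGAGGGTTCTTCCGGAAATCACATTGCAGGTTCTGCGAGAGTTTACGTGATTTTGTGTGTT
Ak1: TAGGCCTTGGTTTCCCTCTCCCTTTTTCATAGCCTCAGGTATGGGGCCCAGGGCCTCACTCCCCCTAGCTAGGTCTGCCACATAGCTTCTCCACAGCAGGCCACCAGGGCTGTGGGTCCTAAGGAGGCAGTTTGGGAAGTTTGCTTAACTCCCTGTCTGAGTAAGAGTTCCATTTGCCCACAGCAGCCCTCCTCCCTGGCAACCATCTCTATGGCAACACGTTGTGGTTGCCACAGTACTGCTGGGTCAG
Dnmt3a: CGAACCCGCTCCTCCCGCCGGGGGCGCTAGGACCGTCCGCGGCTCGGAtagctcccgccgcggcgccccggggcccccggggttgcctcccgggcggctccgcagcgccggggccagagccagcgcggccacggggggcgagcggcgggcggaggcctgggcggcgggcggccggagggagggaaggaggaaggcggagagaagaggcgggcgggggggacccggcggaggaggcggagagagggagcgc
Igf2bp3: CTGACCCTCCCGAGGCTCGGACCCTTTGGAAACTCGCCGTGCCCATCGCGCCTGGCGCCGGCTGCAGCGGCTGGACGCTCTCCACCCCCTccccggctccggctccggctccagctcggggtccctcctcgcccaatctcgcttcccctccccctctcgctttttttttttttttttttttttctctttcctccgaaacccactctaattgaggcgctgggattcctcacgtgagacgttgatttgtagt
Osbpl5: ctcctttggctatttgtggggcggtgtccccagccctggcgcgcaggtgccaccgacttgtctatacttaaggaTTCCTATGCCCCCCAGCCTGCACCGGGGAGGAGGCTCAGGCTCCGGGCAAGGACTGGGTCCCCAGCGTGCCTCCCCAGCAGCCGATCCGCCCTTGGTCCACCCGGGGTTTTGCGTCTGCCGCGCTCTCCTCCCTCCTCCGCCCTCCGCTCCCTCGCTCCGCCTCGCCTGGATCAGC

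Zfp951 and Ak1 lay wholly inside an untreated-only peak and held few CpG dinucleotides, 7 and 1 in the 250 bases. Dnmt3a, Igf2bp3 and Osbpl5 held 38, 21 and 18, and the peak covered 48, 90 and 176 of their bases. The Dnmt3a peak lay 191 bp and the Osbpl5 peak 8099 bp from a vitamin C peak. Both genes had 3 annotated starts, and 6 shared peaks over the span and the 10 kb around it. Dnmt3a RNA was 4.29 RPKM untreated and 3.39 RPKM with vitamin C, and Osbpl5 RNA 20.0 and 28.8 RPKM. Over the whole table, 98 windows of 300 bases, from 94 genes, overlapped an untreated-only peak and no vitamin C peak. Their median was 13 CpG per window, between 21 in the 12798 windows under a shared peak and 4 in the 19629 windows with no H3K4me3 peak in either list.

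The letters GGGCGG, the box bound by SP and KLF factors, stood on either strand in 46.9% of the 98 windows, in 63.4% of those under a shared peak and in 35.7% of all 32851 windows. TATAAA stood in 8.16%, against 6.501% under a shared peak and 13.6% of all windows. GAGGAAGT, a PU.1 core, stood in 6.12%, against 3.50% and 3.20%, and TGTGGT, a RUNX core, in 14.3%, against 12.6% and 16.8%. TGACGTCA and TGACTCA, the cyclic AMP and AP-1 elements, stood in 3.06% each, against 3.30% and 3.63% under a shared peak and 1.79% and 5.20% of all windows. Overlaps between matches of different motifs were not counted, windows of one gene can overlap, and 98 windows give few matches each: 6 for GAGGAAGT and 3 for each of the last pair.

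Untreated-only peaks were short and weak. Their median width was 261 bp, with the middle of the range from 202 to 360 bp, against 949 bp for shared peaks. Only 13 of 4357 were 1 kb or wider, against 47.9% of shared peaks. The median value listed by the authors for each peak, a p or q value whose kind was not stated, was 1.62e-11 for untreated-only and 2.98e-38 for shared peaks. Vitamin C-only peaks had a median width of 274 bp and a median value of 2.35e-11, close to the untreated-only ones. All untreated-only peaks together covered 1.33 Mb, or 2.43% of the bases under the untreated list.

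**Figure D1:**
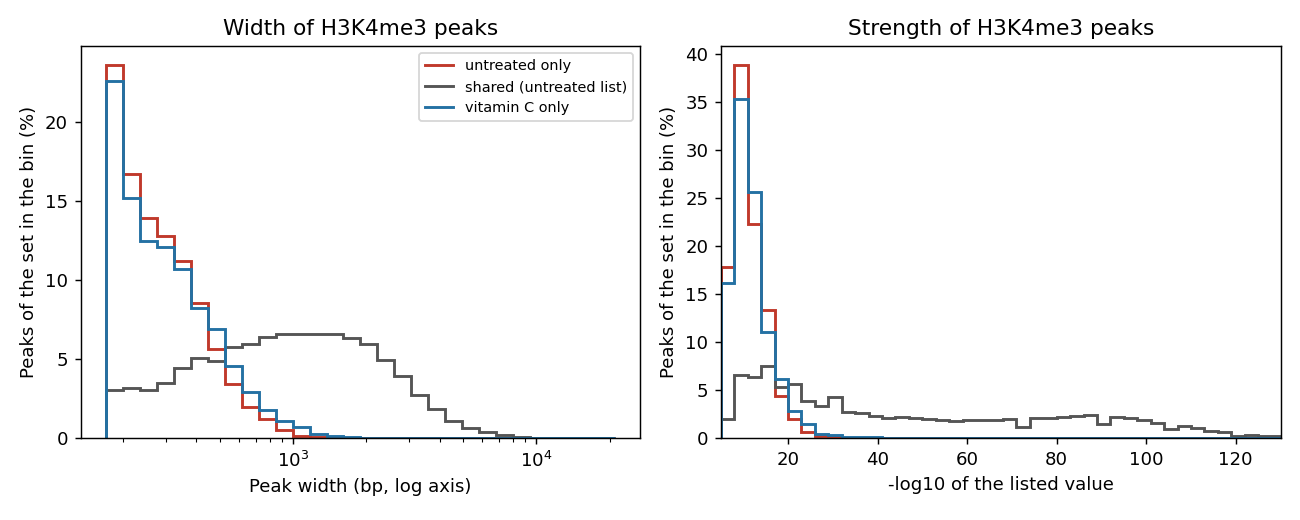
Width in bp on a log axis (left) and −log10 of the listed value (right, axis ended at 130) of H3K4me3 peaks, as the percentage of each set per bin. Untreated-only (red) and vitamin C-only (blue) peaks pile up at the narrow, weak end, with medians of 261 and 274 bp, and shared peaks (grey) have a median of 949 bp.

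Many of them lay beside an H3K4me3 peak that both libraries listed. The median distance to the nearest vitamin C peak was 2343 bp, 734 (16.8%) lay within 200 bp and 1799 (41.3%) within 1 kb. Of those 1799, 1598 (88.8%) were also within 1 kb of a shared untreated peak. A further 224 (5.14%) were over 100 kb from any vitamin C peak. At the edge of the rule, the 104 untreated-only peaks with a vitamin C peak within 50 bp had a median width of 238 bp, and the 173 shared peaks overlapped by 50 bp or less had 258 bp.

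Adgrg1, an adhesion receptor gene of blood stem cells also called GPR56, shows the side-by-side form. Its span and the 10 kb around it held 19 untreated H3K4me3 peaks covering 31845 bp and 13 vitamin C peaks covering 27808 bp, and 7 of the 19 were untreated-only. Between chr8:94989909 and chr8:94997814, 5 untreated-only peaks followed each other over 7.91 kb with no shared and no vitamin C-only peak among them, and none of the 7 overlapped a listed peak of another mark. Adgrg1 RNA was 203 RPKM untreated and 164 RPKM with vitamin C. Ap1b1, a clathrin adaptor subunit, and Plxnb3, a semaphorin receptor, each had 4 untreated-only peaks in a row, over 7.03 and 4.19 kb.

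Zfp951 shows the isolated form. Its peak at chr5:104859044-104860562 was 1519 bp wide with a listed value of 4.84e-34, among the 10 strongest and the 5 widest, and the nearest vitamin C peak was 249496 bp away. An untreated H3K27ac peak overlapped it and no vitamin C H3K27ac peak did. Zfp951 RNA was 1.26 RPKM untreated (124 reads) and 1.70 RPKM with vitamin C (215 reads), and the library without the peak had the higher level.

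The strongest untreated-only peak by listed value, chr8:122829948-122830552 (3.03e-42), lay 12061 bp from Acsf3, a mitochondrial acyl-CoA synthetase gene, and 39264 bp from a vitamin C peak. H3K4me1 overlapped it in both lists and PU.1 in the untreated list. The second, chr7:46391492-46392220 (6.69e-39), lay 3999 bp from Kcnc1, a potassium channel gene at 0 RPKM in both libraries, with H3K27ac and PU.1 in both lists. The third, chr15:75046729-75046992 (2.02e-36), lay in Ly6c1, a surface antigen gene of monocytes, 203 bp from a vitamin C peak. Ly6c1 RNA was 55.6 RPKM untreated and 78.8 RPKM with vitamin C. The widest, chr6:77689741-77691308, was 1568 bp long and only 172 bp from a vitamin C peak. Another wide one, chr2:84839868-84841201 (1334 bp), lay 211 bp from the start of Slc43a1, an amino acid transporter gene below 1 RPKM in both libraries, and 11441 bp from a vitamin C peak.

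Few untreated-only peaks were at gene starts. Of the 4210 outside chromosome 18, for which starts were not used here, 44 (1.05%) overlapped a RefSeq gene start and 289 (6.86%, 6.12 to 7.67) lay within 1 kb of one. The share was 33.1% (32.7 to 33.6) of shared peaks, 30.6% of all untreated peaks and 6.22% (5.65 to 6.83) of vitamin C-only peaks. The difference narrowed at like width: among peaks of 200 to under 300 bp the shares were 7.02% for untreated-only, 12.9% for shared and 6.51% for vitamin C-only peaks. The median distance to a start was 17409 bp for untreated-only and 7547 bp for shared peaks.

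**Figure D2:**
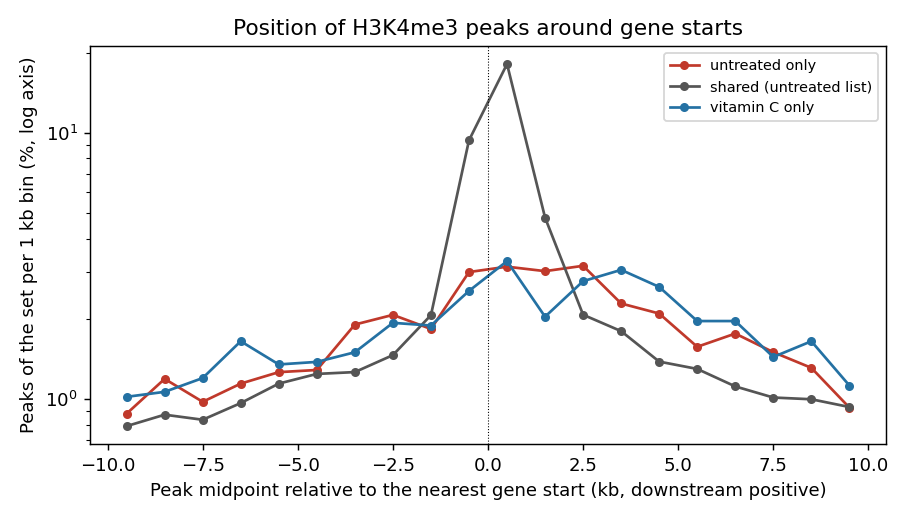
Midpoints of H3K4me3 peaks relative to the nearest gene start in 1 kb bins, as the percentage of each set (log axis), downstream positive. Shared peaks (grey) reach 18.1% in the first kb downstream, where untreated-only peaks (red) hold 3.14% and vitamin C-only peaks (blue) 3.29%.

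Gene bodies held most of them: 2440 (56.0%) lay in the span of a protein-coding gene, 659 (15.1%) outside but within 10 kb of one, and 1258 (28.9%) farther away. Of shared peaks, 65.5% lay in a span and 19.2% were farther than 10 kb. Among the 1526 untreated-only peaks with a midpoint within 10 kb of a start, 57.2% were downstream of it. By chromosome, the untreated-only share of untreated peaks was lowest on chromosome 19, at 8.24% (123 of 1493), and highest on chromosome X, with 161 of 1240, leaving aside the 14 peaks on Y.

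Few expressed genes had H3K4me3 within 1 kb of a start in the untreated list alone. A start within 1 kb of an untreated-only peak was found for 303 genes, and 139 of these had no start within 1 kb of a vitamin C peak. Only 6 of the 139 reached 1 RPKM in 1 or both libraries: Sdc4, F7, Zfp951, Ak1, Pfdn4 and Timeless. Of the 303 genes, 85 did so. The starts came from 27025 genes, and RNA values were given for 22371 Ensembl genes. A gene with no RNA value therefore counts as not reaching 1 RPKM, and how many of the 139 had none was not counted. Sdc4 (syndecan-4, a cell surface proteoglycan) was at 0.896 RPKM in the untreated and 3.96 RPKM in the treated library, 4.42-fold higher (3.75 to 5.25), although its single peak of 233 bp, 261 bp downstream of the start, was untreated-only. F7 (coagulation factor VII) had 5.34 and 2.22 RPKM, 2.40-fold lower (2.12 to 2.73). Its untreated-only peak of 258 bp was centred 800 bp from a start and lay 354 bp from a vitamin C peak. H3K4me3 over its span and the 10 kb around it covered 8343 bp untreated and 8375 bp with vitamin C. The peaks of Pfdn4 and Timeless were centred 827 and 981 bp from a start. The other 4 differed by less than 1.5-fold, with Ak1 at 5.15 and 6.42 RPKM, Pfdn4 (prefoldin) at 5.73 and 6.96, and Timeless (a replication fork factor) at 13.7 and 11.8. Of the 6 genes, 4 were higher with vitamin C and 2 lower, where 4608 of all 10250 measured genes were higher. Among the 4 higher ones, Sdc4 reached 1 RPKM only with vitamin C, so its inclusion rests on the filter. These counts were not compared by a test, and 6 genes are too few to give a direction.

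Igf2bp3 was named after its values were seen, for RNA that the vitamin C table lists at 0. It had 634 reads (2.01 RPKM) untreated, so the treated library was at least 270-fold lower when set at the floor of 3 reads per library. H3K4me3 peaks were listed beside its start in both libraries, and whether the 0 is a failed entry of the table was not tested. Of 7 untreated H3K4me3 peaks over its span and the 10 kb around it, 3 were untreated-only, all between chr6:49213645 and chr6:49216043 beside its start. The other 4 had a vitamin C partner, the covered H3K4me3 bases were 3257 bp untreated and 2286 bp with vitamin C, and the peak of 569 bp next to the start was 418 bp wide with vitamin C.

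Untreated-only peaks were under H3K27ac less often in the vitamin C list than in the untreated list. H3K27ac overlapped 44.0% (42.5 to 45.5) of untreated-only peaks in the untreated list and 34.7% (33.3 to 36.2) in the vitamin C list, against 70.9% and 67.8% of all untreated H3K4me3 peaks. For shared peaks the values were 73.7% and 71.3%, and for vitamin C-only peaks the order was the opposite, 33.0% and 40.5%. The gap to shared peaks in the untreated list was smaller at like width: at 200 to under 300 bp untreated H3K27ac lay over 42.0% of untreated-only and 44.9% of shared peaks, and vitamin C H3K27ac over 33.6% and 42.6%. Of the untreated-only peaks under untreated H3K27ac, 74.5% (72.4 to 76.4) were also under vitamin C H3K27ac, against 94.1% (93.8 to 94.4) of shared and 87.6% (86.2 to 88.9) of vitamin C-only peaks. In the same width class these were 74.6%, 85.4% and 88.0%, with untreated-only peaks again lowest and the other sets in the opposite order. Read from the vitamin C side, 71.5% (69.7 to 73.1) of vitamin C-only peaks under vitamin C H3K27ac were also under untreated H3K27ac, against 94.3% (93.0 to 95.4) of untreated-only peaks. H3K27ac in the untreated list alone marked 490 untreated-only peaks (11.2%), against 5.01% of all untreated H3K4me3 peaks, and in the vitamin C list alone 86 (1.97%), against 1.89%. Over the whole H3K27ac list, 13.4% of untreated peaks had no vitamin C partner.

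H3K4me1 was found over nearly as many untreated-only as shared peaks and was less often listed with vitamin C over every set. It overlapped 63.4% (62.0 to 64.8) of untreated-only peaks in the untreated list and 41.0% (39.5 to 42.5) in the vitamin C list, against 64.9% and 44.7% of all untreated H3K4me3 peaks. The values were 65.0% and 45.1% for shared peaks and 64.5% and 43.8% for vitamin C-only peaks. Of those under untreated H3K4me1, 47.4%, 49.8% and 48.1% were also under vitamin C H3K4me1 in the 3 sets. The whole H3K4me1 list was shorter with vitamin C, 45657 peaks against 57750, and 58.9% of its untreated peaks had no vitamin C partner.

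PU.1 overlapped 20.4% (19.2 to 21.6) of untreated-only peaks untreated and 9.96% (9.09 to 10.9) with vitamin C, beside 40.6% and 21.7% of shared and 38.7% and 20.6% of all untreated peaks. Vitamin C-only peaks had 23.2% and 10.4%, and at 200 to under 300 bp the untreated shares were 17.7% for untreated-only, 23.8% for shared and 21.3% for vitamin C-only peaks. The PU.1 list also shrank as a whole, from 61611 to 23522 peaks, and 63.9% of its untreated peaks had no vitamin C partner. Of untreated-only peaks under untreated PU.1, 47.4% were also under vitamin C PU.1, against 52.1% of shared and 42.4% of vitamin C-only ones. Runx1 was rare in both sets found in 1 list only, with 20 untreated-only peaks (0.459%) under it untreated and 24 (0.551%) with vitamin C, where shared peaks had 10.3% and 17.2% and all untreated peaks 9.4% and 15.6%. Vitamin C-only peaks had 0.479% and 0.682%, and shared peaks of 200 to under 300 bp had 2.78% and 4.75%. No listed peak of H3K4me1, H3K27ac, PU.1 or Runx1 in either library touched 628 untreated-only peaks (14.4%, 13.4 to 15.5), against 6.20% of shared and 12.1% of vitamin C-only peaks.

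**Figure D3:**
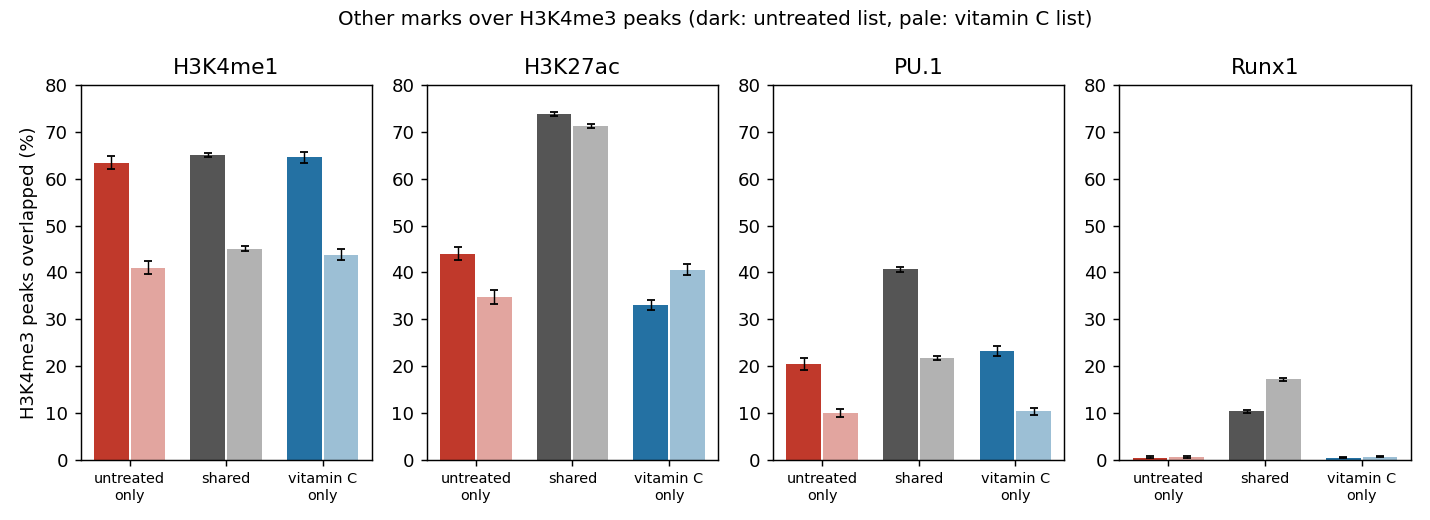
Percentage of H3K4me3 peaks overlapped by a listed peak of 4 other factors in the untreated list (dark bars) and the vitamin C list (pale bars), with exact 95% intervals. H3K27ac is at 44.0% and 34.7% for untreated-only peaks and at 33.0% and 40.5% for vitamin C-only peaks, and H3K4me1 and PU.1 are lower with vitamin C in all 3 sets.

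The other marks differed with distance from a vitamin C H3K4me3 peak and from a gene start. Within 200 bp of a vitamin C peak, untreated H3K27ac lay over 55.6% and vitamin C H3K27ac over 47.3%. Beyond 100 kb these were 32.6% and 21.0%, and untreated H3K4me1 was at 69.5% nearest and 40.2% beyond 100 kb. Untreated PU.1 was lowest between 200 bp and 1 kb, at 12.8%, and highest from 1 to 10 kb, at 25.5%. The 289 peaks within 1 kb of a gene start carried untreated H3K27ac in 19.7% (15.3 to 24.8), against 50.6% (48.7 to 52.5) of the 2674 peaks over 10 kb from a start.

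**Figure D4:**
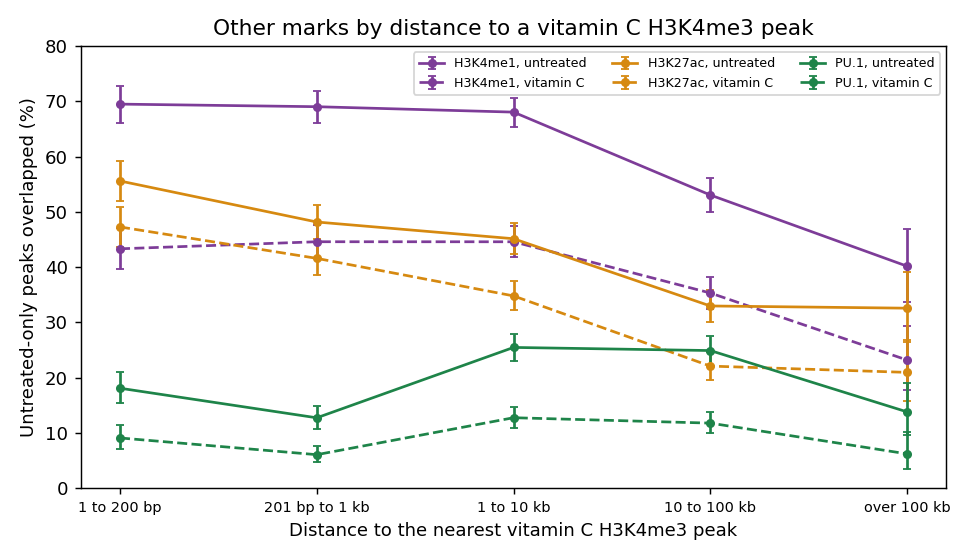
Percentage of untreated-only H3K4me3 peaks overlapped by H3K4me1, H3K27ac and PU.1 in the untreated (solid) and vitamin C (dashed) lists, by distance to the nearest vitamin C H3K4me3 peak, with exact 95% intervals. H3K27ac runs from 55.6% and 47.3% nearest to 32.6% and 21.0% beyond 100 kb.

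Both H3K27ac and H3K4me1 were listed untreated and neither with vitamin C over 179 untreated-only peaks (4.11%), against 1.7% of all untreated H3K4me3 peaks. The opposite state held for 6 (0.138%). Shared peaks were uneven in the same direction, with 600 (1.45%) and 98 (0.237%). Vitamin C-only peaks had 98 (1.42%) and 95 (1.38%). The peak in Irf8, an interferon regulatory factor of monocytes and dendritic cells, belonged to the 179. It lay at chr8:120747707-120748219, 9323 bp downstream of the start, had untreated PU.1 as well, and was 9923 bp from a vitamin C H3K4me3 peak. The shared peaks before and at the start, of 399 and 1409 bp, were 386 and 1430 bp with vitamin C. Irf8 RNA stood at 8.58 RPKM without and 2.58 RPKM with the treatment, 3.32-fold lower (3.14 to 3.51). Pak1, a p21-activated kinase gene chosen after its values were seen, had such a peak 7265 bp outside its span, at chr7:97781061-97781276, and 2.16 RPKM untreated against 0.438 RPKM. Strong peaks of the same class near Ahcy, the S-adenosylhomocysteine hydrolase gene (47.96 and 32.5 RPKM), and in Prep, a prolyl endopeptidase gene (74.0 and 103.6 RPKM), stood beside smaller changes of either sign. P4ha1 had such a peak too, with 21.4 and 47.5 RPKM, 2.21-fold higher (2.15 to 2.28). Counting genes at 1 RPKM or more in either library, 108 lay within 10 kb of such a peak. Of these, 1 (0.926%) was 2-fold or more higher and 6 (5.56%) lower, against 2.36% and 1.92% of all genes. Among the 6, Evi5, Pak1, Fam213a and Glra3 reached 1 RPKM only in the untreated library. No test compared these counts.

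Regions of changed cytosine methylation seldom met untreated-only peaks. The lists give no direction or threshold beyond their names. The 35 untreated-only peaks under a WGBS deMR were 0.803% (0.560 to 1.12), against 2.84% of all untreated H3K4me3 peaks and 5.06% of vitamin C-only peaks. Regions of the hydroxymethylation list (iHR) lay over 33 (0.757%, background 1.87%), WGBS iMRs over 14 (0.321%, background 1.5%), MeDIP deMRs over 9 (0.207%, background 0.691%), MeDIP iMRs over 4 (0.0918%, background 0.186%) and the mutant MeDIP list over 18 (0.413%, background 0.949%). At an overlap of 1 bp or more every share was below the background, and untreated-only peaks are narrower than most. At 200 to under 300 bp of width, WGBS deMRs lay over 0.552% of untreated-only, 1.73% of shared and 2.89% of vitamin C-only peaks. At 500 bp to under 1 kb, a class with only 384 untreated-only peaks, these were 1.3%, 2.62% and 12.1%. Not every list stayed lower at like width. Under 200 bp, MeDIP deMRs lay over 0.485% of untreated-only and 0.392% of shared peaks, and MeDIP iMRs over 0.194% and 0.157%. The other lists were lower there. At 300 to under 500 bp the mutant MeDIP list lay over 0.693% of untreated-only and 0.579% of shared peaks. MeDIP iMRs lay over 0.260% and 0.110% at 500 bp to under 1 kb, and over 0.0613% and 0.0605% at 200 to under 300 bp. The remaining lists were lower in each of these classes.

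Genes near untreated-only peaks differed 2-fold between the RNA libraries about as often as all genes. Of 2942 genes with a span within 10 kb of one, 1945 reached 1 RPKM in either library and 997 stayed below it in both. Log2 changes compare the treated with the untreated RPKM after adding 0.5 to each, which understates low genes. On that scale 53 (2.72%) were 2-fold or more higher with vitamin C, against 2.36% of the 10250 genes measured. Another 51 (2.62%) were 2-fold or more lower, against 1.92%. Of the 53, 13 were below 1 RPKM untreated, and of the 51, 17 were below it with vitamin C. Over all genes these were 66 of 242 and 75 of 197. With the mean of both libraries at 1 RPKM or more, a filter chosen after seeing the data, 47 (2.45%) of 1918 were higher and 43 (2.24%) lower. All genes then stood at 2.21% and 1.62%. The median log2 change was −0.05 near untreated-only peaks and −0.04 over all genes. These 1945 genes were long, with a median span of 41.8 kb against 22.0 kb, and among genes over 50 kb the lower share was 2.97% near an untreated-only peak and 2.68% in all. Among genes under 20 kb the higher share was 4.75% near such a peak (27 of 569) and 3.06% in all, and of the 85 measured genes with a start within 1 kb of one, 6 (7.06%) were higher and 2 (2.35%) lower. In bulk RNA fewer cells of a type and less RNA per cell cannot be told apart.

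Nearly all of these genes had H3K4me3 in both lists. In 1936 of the 1945 (99.5%) a vitamin C H3K4me3 peak lay over the span or within 10 kb, and the median share of untreated H3K4me3 bases inside untreated-only peaks was 5.07%. The 9 genes without such a vitamin C peak had 2 that were 2-fold or more higher and 0 that were 2-fold or more lower. Sdc4, described above, was one of the higher ones.

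Genes were also counted by the number and kind of their untreated-only peaks, beside 2.36% higher and 1.92% lower over all genes and 1.62% and 2.68% over genes longer than 50 kb. No test compared these counts. Of 125 genes with 3 or more untreated-only peaks, 2 (1.6%) were higher and 8 (6.4%) lower, with a median log2 change of −0.13. The 8 were Igf2bp3, Evi5, Il6ra, Prr5, Prex1, Glra3, Slco3a1 and Mylk, and the 2 were Bco1 and Scin. Of the 8, 4 were below 1 RPKM with vitamin C and so were measured only through the untreated library. Of 283 genes near a peak with H3K27ac untreated only, 3 (1.06%) were higher and 12 (4.24%) lower, against 25 (3.67%) and 19 (2.79%) of the 681 near a peak with H3K27ac in both lists. Of the 12, 5 were measured only through the untreated library, and of the 3, 2 only through the vitamin C library, so these counts rest in part on the filter. With the mean of both libraries at 1 RPKM or more, a filter chosen after seeing the data, the higher and lower counts were 2 and 7 of 124 and 2 and 11 of 279, against 223 and 164 of all 10109 genes. The median spans of these sets were 130.3, 74.1 and 57.0 kb, above the 22.0 kb of all genes, and the part of gene length in these counts was not tested. Il6ra, the interleukin-6 receptor gene, had 4 untreated-only peaks among 7 and no vitamin C-only peak. Its RNA had 434 and 91 reads, 1.79 and 0.293 RPKM, 6.09-fold lower with vitamin C (4.85 to 7.73). Prr5, a subunit gene of mTOR complex 2, had 2940 bp of H3K4me3 untreated and 1207 bp with vitamin C, with 3 of its 6 peaks untreated-only, and 4.42 RPKM with vitamin C, 2.98-fold lower (2.74 to 3.25).

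The 10 largest negative log2 changes at 5 RPKM or more in 1 or both libraries began with Mpo, the myeloperoxidase of primary granules. Mpo RNA was at 796 and 131 RPKM, 6.10-fold lower in the vitamin C library (6.03 to 6.16). Its untreated-only peak, chr11:87797365-87797597, was only 233 bp with a listed value of 1.26e-06, lay 194 bp from a vitamin C peak and was one of 5 peaks, the largest of which was 4270 bp untreated and 4079 bp with vitamin C. Vit, an extracellular matrix gene, had 12.8 and 2.19 RPKM, and Krt80, a keratin gene, 12.6 and 3.35 RPKM. Ccdc85c (5.12 and 1.16 RPKM), Irf8, C2cd4a (98.99 and 33.8), Prr5, Prex1 (a Rac exchange factor, 15.1 and 5.27), Tns3 (tensin-3, 6.77 and 2.25) and Cpq (a carboxypeptidase, 9.75 and 3.43) completed them. Vit, Krt80, Ccdc85c, Irf8, Prr5, Tns3 and Cpq reached 5 RPKM only in the untreated library, so their listing rests in part on the filter. Only Prr5, Irf8 and Ccdc85c had over 10% of their untreated H3K4me3 bases in untreated-only peaks, 43.2%, 17.4% and 10.7%.

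The 10 largest positive changes included 2 immediate early genes, Ier3 and Zfp36. Osm, the cytokine oncostatin M, had 11.6 and 95.8 RPKM, 8.23-fold higher in the vitamin C library (7.85 to 8.63), with an untreated-only peak of 180 bp lying 88 bp from a vitamin C peak. Ier3, a stress-induced survival factor, had 27.6 and 206 RPKM, Nt5e, the ecto-nucleotidase CD73, 4.64 and 35.1 RPKM, and Zfp36, a factor of mRNA decay, 15.5 and 106 RPKM. Rbms1, an RNA-binding protein gene, had 4.63 and 29.5 RPKM, and its untreated-only peak was 32834 bp from a vitamin C peak. Tnfrsf9 (16.8 and 89.2 RPKM), Tmprss11g (2.51 and 13.197), Tpm4 (4.75 and 20.5), Upp1 (9.44 and 35.6) and Hist1h2ac (1.78 and 7.62) were the rest. Nt5e, Rbms1, Tmprss11g, Tpm4 and Hist1h2ac reached 5 RPKM only with vitamin C, so their listing too rests in part on the filter. None of the 10 genes had over 15% of its untreated H3K4me3 bases in untreated-only peaks.

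**Figure D5:**
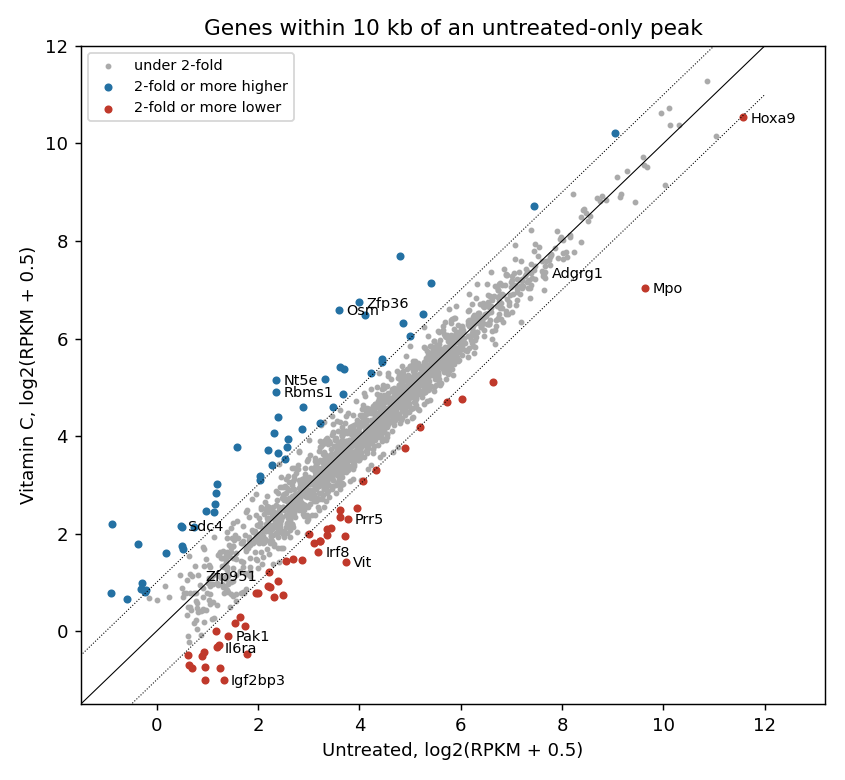
RNA of the 1945 measured genes within 10 kb of an untreated-only H3K4me3 peak, as log2(RPKM + 0.5) untreated and with vitamin C. The solid line marks no difference and the dotted lines 2-fold, with 53 genes above (blue) and 51 below (red).

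Among the genes with most untreated-only peaks were Adgrg1 and Ptpre with 7 each and Akap13 and Cux1 with 6 each. Ptpre (a tyrosine phosphatase) had 58.2 RPKM untreated and 72.5 RPKM with vitamin C, Akap13 (an A-kinase anchoring protein) 41.1 and 34.2, and Cux1 (a homeobox factor) 38.9 and 29.8. None of these 4 reached 2-fold. Ptpre, Akap13 and Cux1 also had 3, 3 and 7 vitamin C-only peaks, and their covered H3K4me3 bases with vitamin C were 0.942, 1.03 and 0.960 times the untreated ones.

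Of the 17 genes of blood identity and cytosine modification followed in every case, 12 had no untreated-only peak within 10 kb: Kit, Flt3, Prtn3, Gfi1, Spi1, Cebpa, Cebpe, Csn2, Hpgd, Tet2, Dnmt3b and Idh1. Over all measured genes 8305 of 10250 had none. Large RNA differences occurred among these 12 too, with Kit, the SCF receptor, at 32.1 and 5.07 RPKM, and Hpgd, a prostaglandin dehydrogenase, at 208 and 20.8 RPKM. Mpo, Hoxa9, Meis1 and Irf8 had 1 untreated-only peak each and Runx1 had 3. Hoxa9 RNA had 3062 RPKM in the untreated and 1487 RPKM in the treated library, and whether reads of the immortalizing HOXA9 enter these values was not tested. Its peak, chr6:52232515-52232766, was 252 bp wide and 5270 bp upstream. Meis1, a HOXA9 cofactor, had 18.3 and 10.0 RPKM, and Runx1 52.5 and 66.3 RPKM.

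Among gene lists, 19.0% of all measured genes lay within 10 kb of an untreated-only peak. The shares were 6 of 13 stem and progenitor regulators (Cd34, Erg, Hoxa9, Meis1, Myb and Tal1), 4 of 12 myeloid transcription factors, 5 of 15 growth factor receptors and STAT5 targets, 5 of 17 H3K4 methylation genes, 4 of 16 immediate early genes, 4 of 17 hypoxia genes, 2 of 8 primary granule genes and 2 of 14 cytosine methylation genes. Near such a peak the median log2 change was 2.23 for the immediate early genes and 1.19 for the hypoxia genes, and over the whole lists it was 2.55 and 0.90. For the stem and progenitor regulators it was −0.28 near a peak and −0.55 over the list. The H3K4 methylation genes near a peak included Kdm5b, an H3K4 demethylase, at 11.8 and 7.05 RPKM, Kmt2c, an H3K4 methyltransferase, at 8.70 and 5.12, and Dpy30, a subunit of its complexes, at 49.8 and 75.7, none 2-fold apart.

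Markers of other cell types were checked in the same way. Mast cell and basophil genes had 3 of 7 measured near an untreated-only peak, with Cpa3 at 1863 and 2488 RPKM, Mcpt8 at 110 and 140 RPKM and Prss34 at 8.40 and 7.28 RPKM, and monocyte genes 1 of 5, Ly6c2 at 1122 and 1331 RPKM. The erythroid, T and NK cell and megakaryocyte lists had 2 measured genes each, B cells none, and none of these genes lay near an untreated-only peak. Over the whole lists, 2 of 7 mast cell and basophil genes and 3 of 5 monocyte genes were 2-fold or more higher with vitamin C. So were 1 of 2 erythroid, 1 of 2 T and NK cell and 0 of 2 megakaryocyte genes. In each of these lists 0 were 2-fold or more lower. Over all measured genes 2.36% were higher and 1.92% lower. The part of mast cell or monocyte RNA in the values near these peaks was not tested.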

How the data were processed

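ChIP-seq peaks and RNA-seq values from IDH1 R132H cells were used, 1 library per condition, with lists of methylation regions. The submitters' processing notes name BWA, CASAVA 1.8.2, SAMtools 0.1.16, Picard and MACS2 2.1.0.2 for the histone libraries and the build mm10, without roles. The authors deposited each histone peak with a p-value or q-value, and PU.1 and Runx1 peaks with a score of undefined kind. Peaks were listed per library, and how each was called is not given in the sources used here. Repeated intervals were removed. The RNA tables hold read counts for each Ensembl gene beside RPKM values, as deposited by the authors, with 86804487 and 111453443 counts. The counting tool is not given in the sources used here.

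From these files, peaks sharing 1 bp or more were called overlapping (Python 3.11.15, pandas 2.3.3). Genes were placed by RefSeq spans of GRCm38.p6, the assembly of mm10, for 21017 of 22371 genes, and starts came from 32851 promoter windows of 27025 genes. Shares have exact Clopper-Pearson intervals, and RPKM ratios an exact binomial interval of the reads (SciPy 1.17.1), both at 95%. Overlaps and folds were tested on simulated data. Named genes are the 10 largest changes each way at 5 RPKM or more in 1 or both libraries, within 10 kb of an untreated-only peak. They also include the genes with a start only there, the 5 with most such peaks, a fixed set, and up to 4 per gene list. Igf2bp3, Pak1, Osbpl5, the strongest and widest regions' genes and the genes listed by class fall outside the gene rule. Some genes that the rule names are not reported here. The peaks, the lists and the rule were chosen with earlier results of these data known. The authors' lists of up- and downregulated genes were not used. Gene starts on chromosome 18 were not analysed here, which leaves out 147 peaks. The methylation lists hold regions with no values, and the mutant MeDIP list comes with the untreated wild-type sample.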

Additional observations from a re-analysis of the deposited data

How the results depend on the processing

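No paired analysis was possible because each group holds 1 library. The number of untreated-only peaks was 2558 when a vitamin C peak within 1 kb counted as shared and 2407 at a listed value of 1e-10 or less. It stayed within 1.5 times of 4357 when 50% of the peak had to be covered or both lists ended at 1e-10. The share at a gene start was 4.58% within 500 bp and 11.8% within 2 kb. Shares under other marks, each given untreated and then with vitamin C, depended on what counts as overlap. With 50% of the peak covered they were 40.9% and 32.2% (H3K27ac), 11.7% and 4.29% (PU.1) and 0.0918% and 0.138% (Runx1), with 0.344% for WGBS deMRs and 0% for MeDIP iMRs. Within 1 kb they were 55.9% and 47.2% (H3K27ac), 35.2% and 18.7% (PU.1) and 2.11% and 2.55% (Runx1). The region lists within 1 kb were at 1.10% (mutant MeDIP), 0.872% (MeDIP deMR), 0.482% (MeDIP iMR), 2.39% (iHR), 1.65% (WGBS iMR) and 2.78% (WGBS deMR). Shares at 50% cover and within 1 kb were computed for untreated-only peaks alone. They have no background at the same setting and cannot be set beside the backgrounds above, which count 1 bp of overlap. For peaks beyond 1 kb of a vitamin C H3K4me3 peak the shares, again at 1 bp, were 59.3% and 38.9% for H3K4me1, 39.0% and 28.3% for H3K27ac, 24.2% and 11.8% for PU.1 and 0.508% for iHRs. For peaks of 1e-10 or less PU.1 was at 23.1% and 11.4%. H3K27ac was lower with vitamin C under each of these. Near genes, 30 were higher and 18 lower with the gene start, not the span, within 10 kb (828 genes), 27 of 1656 lower at 5 RPKM or more (108 of all 8486), 119 higher and 127 lower at 1.5-fold (639 and 677 of all 10250), 30 higher and 25 lower beyond 1 kb of a vitamin C peak (982 genes), and 32 higher at 1e-10 or less (1154 genes), against 242 higher and 197 lower of all 10250 at 2-fold. The median log2 change was 0 with no filter and −0.0082 when scaled to the median ratio, where all genes stood at 0. A span limit of 5 kb, other pseudocounts and scaling to library totals kept the counts within 1.5 times. Of 79 named genes, 1 crossed 2-fold at each other pseudocount and 0 changed sign. With 1 library per condition, a weak peak missing from 1 list may reflect depth or calling, which was not tested, and the ChIP-seq depths were not known here.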
